A study of Mus musculus with 12 samples.

Results

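Klk1 and the Klk1b genes encode the tissue kallikreins of the mouse, secreted serine proteases whose genes lie side by side on chromosome 7. The group comprised every protein-coding gene named Klk1 or starting with Klk1b in the authors' deposited comparison table, with pseudogenes left out. It held 7 of the 13703 genes in that table: Klk1, Klk1b3, Klk1b4, Klk1b5, Klk1b8, Klk1b11 and Klk1b24. The count table held 14 such genes. Klk1 and Klk1b4 were singled out because earlier results of these same libraries showed them higher with anti-CD3, so their difference between groups is described here and not tested. The values that chose them were the normalized counts of anti-CD3 against IgG.

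The libraries came from islets of wild-type NOD/ShiLtJ mice, in which autoimmune diabetes arises spontaneously. All mice were female and 9 weeks old at the start. Of the 12 libraries, 6 (anti-CD3) came from mice dosed weekly with 2.5 mg/kg of an antibody against CD3, part of the T cell receptor complex, for 4 weeks. The other 6, the IgG libraries, came from mice given control IgG on the same weekly schedule. Islets were isolated with collagenase P 2 to 3 days after the last dose and were not treated outside the animal. The labels do not say whether a library is 1 mouse or a pool, so the spread between libraries may be partly technical.

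Tissue kallikrein cleaves kininogen to release kinins, short peptides that act on the bradykinin receptors B1 and B2 and are degraded by peptidases such as angiotensin-converting enzyme. In the pancreas it is made by acinar cells, the exocrine cells that secrete digestive enzymes, and is stored with those enzymes in zymogen granules. In the mouse, copies of the ancestral gene gave rise to the Klk1b genes, some of whose products process growth factors in the salivary gland.

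The tissue was labelled as endocrine pancreas, but genes of acinar enzymes took most of the reads in nearly all libraries. A list of 23 measured acinar enzyme genes took 66.0 to 69.7% of counts in the anti-CD3 libraries and 31.3 to 69.4% in the IgG libraries. IgG 5, at 53.5%, and IgG 6, at 31.3%, stood apart from the other 4 IgG libraries, which lay between 62.3 and 69.4%. Total counts were 10994337 to 19284740 per anti-CD3 library and 11891132 to 17628347 per IgG library. Insulin was abundant, with a median of 128433 normalized counts of Ins2 in the anti-CD3 libraries and 105443 in the IgG libraries. By TPM, a length-scaled share of the library, the Ins2 medians were 8035 and 9582, so the order of groups depended on the scale. In the edgeR fit given below, 5 of 12 endocrine markers had higher and 7 lower levels in the anti-CD3 libraries. Their median log2 fold change was -0.11, against -0.05 over all genes tested. In such bulk samples, a change in the number of acinar cells carried along with the islets and a change in RNA per cell cannot be told apart. Many results are therefore also given without IgG 5 and IgG 6.

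Klk1 (ENSMUSG00000063903, chr7:44225360-44229618, plus strand, GRCm38, 5 exons) is the gene for true tissue kallikrein. Klk1b5 (ENSMUSG00000066512, chr7:44215945-44220703), Klk1b4 (ENSMUSG00000066513, chr7:44207435-44211754) and Klk1b3 (ENSMUSG00000066515, chr7:44198191-44202352) precede it on the same strand. These positions are from GENCODE M21. Before their RefSeq starts the 4 genes share an aligned stretch of 120 bases, shown because these 4 genes had the highest levels of the group and were higher together in the anti-CD3 libraries. The sequences are from RefSeq (GRCm38.p6, plus strand). Capitals mark TGGGAA, the core of the site bound by RBPJ and its acinar paralogue RBPJL, and CAGGTG, a form of the E box CANNTG bound by basic helix-loop-helix factors.
Klk1, chr7:44225214-44225333: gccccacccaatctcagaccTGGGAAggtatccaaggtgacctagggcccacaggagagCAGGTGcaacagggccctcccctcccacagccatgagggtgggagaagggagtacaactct
Klk1b5, chr7:44216236-44216355: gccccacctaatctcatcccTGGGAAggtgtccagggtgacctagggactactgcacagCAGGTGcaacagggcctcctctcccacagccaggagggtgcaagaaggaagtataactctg
Klk1b4, chr7:44207192-44207311: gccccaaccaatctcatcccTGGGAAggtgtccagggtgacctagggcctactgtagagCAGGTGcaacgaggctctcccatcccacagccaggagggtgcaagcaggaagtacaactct
Klk1b3, chr7:44197992-44198111: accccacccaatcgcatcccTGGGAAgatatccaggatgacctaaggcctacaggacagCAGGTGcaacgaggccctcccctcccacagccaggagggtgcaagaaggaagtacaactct

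The stretch of Klk1b5 was 85.1% identical to that of Klk1, that of Klk1b4 85.8% and that of Klk1b3 86.7%. In all 4 genes the 2 capitalised words began 39 bases apart. The TGGGAA word began at position -126 relative to the RefSeq start of Klk1, at -218 for Klk1b5, at -221 for Klk1b4 and at -179 for Klk1b3. The GENCODE gene of Klk1b5 begins further upstream than its RefSeq start, so its stretch lies inside the GENCODE gene. The pair of words and its spacing were chosen after the promoters had been read. The kallikrein genes are copies of an ancestral gene, so their promoters are not independent of each other. Read on the strand of the gene, it occurred in 7 of 32851 RefSeq promoters, each 250 bases before to 50 after a start, or 0.0213%. Of these 7 promoters 6 belonged to the kallikrein group, namely Klk1, Klk1b3, Klk1b4, Klk1b5, Klk1b8 and Klk1b22. Klk1b22 had 0 counts in the 12 libraries, so the pair was also present upstream of a gene that was not detected. Klk1b24, which had few counts but the largest log2 fold change of the group, lacked the pair. Whether the pair bears on these levels was not tested.

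All 14 genes had a promoter in the RefSeq table. Searched alone on both strands, TGGGAA was in 13 of the 14 kallikrein promoters and in 25.6% of all promoters. CANNTG was in all 14 and in 72.3% of all promoters. CAAGGNCA, an extended site bound by nuclear receptors such as NR5A2, was in 7 of the 14 and in 6.71% of all promoters. TATAAA was in 0 of the 14, against 13.6% of all promoters. Because the 14 promoters belong to gene copies and are not independent, their counts are not a measure of enrichment. These matches describe letters in a window and say nothing of binding.

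Klk1 was the dominant kallikrein and was about 2-fold higher in the anti-CD3 libraries. Its normalized counts, the deposited counts divided by 1 size factor per library, were 65558 at the lowest, 76953 at the median and 87886.5 at the highest of 6 anti-CD3 libraries, against 7721, 39312 and 51237 in 6 IgG libraries. Every anti-CD3 library lay above every IgG library, and the lowest IgG values were those of IgG 6, at 7721, and IgG 5, at 21083. Fitted with edgeR, the log2 fold change for anti-CD3 relative to IgG was 1.13 ± 0.35 (SE, n = 6 each), a fold of 2.19. Without IgG 5 and IgG 6 it was 0.76 ± 0.16, a fold of 1.69. With the mean level of the acinar enzymes as a covariate it was 0.48 ± 0.15.

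Klk1b4 had the larger fold difference. Its normalized counts were 134.6, 275.0 and 349 (lowest, median, highest) in the anti-CD3 libraries, against 18.7, 86.6 and 131 in the IgG libraries. The groups did not overlap, but the lowest anti-CD3 library, at 134.6, and the highest IgG library, at 131, were close. The log2 fold change was 1.78 ± 0.40 (SE, n = 6 each), or 3.44-fold, and 1.36 ± 0.25 without IgG 5 and IgG 6. With the acinar covariate it was 1.12 ± 0.29.

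Klk1b5 and Klk1b3 differed between groups by about the same fold as Klk1. Klk1b5 had 790, 994 and 1153.5 normalized counts (lowest, median, highest) in the anti-CD3 libraries, against 77.0, 467 and 786 in the IgG libraries. These groups were separated by a narrow margin. Klk1b3 had 53.3, 90.0 and 107 normalized counts in the anti-CD3 libraries, against 11.5, 42.2 and 64.7 in the IgG libraries, and 5 of 6 anti-CD3 libraries lay above the highest IgG library. The log2 fold changes were 1.16 ± 0.40 for Klk1b5 and 1.13 ± 0.34 for Klk1b3 (SE, n = 6 each). Without IgG 5 and IgG 6 both were 0.76, with SEs of 0.19 and 0.24. With the acinar covariate they were 0.45 ± 0.20 for Klk1b5 and 0.57 ± 0.27 for Klk1b3.

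**Figure D1:**
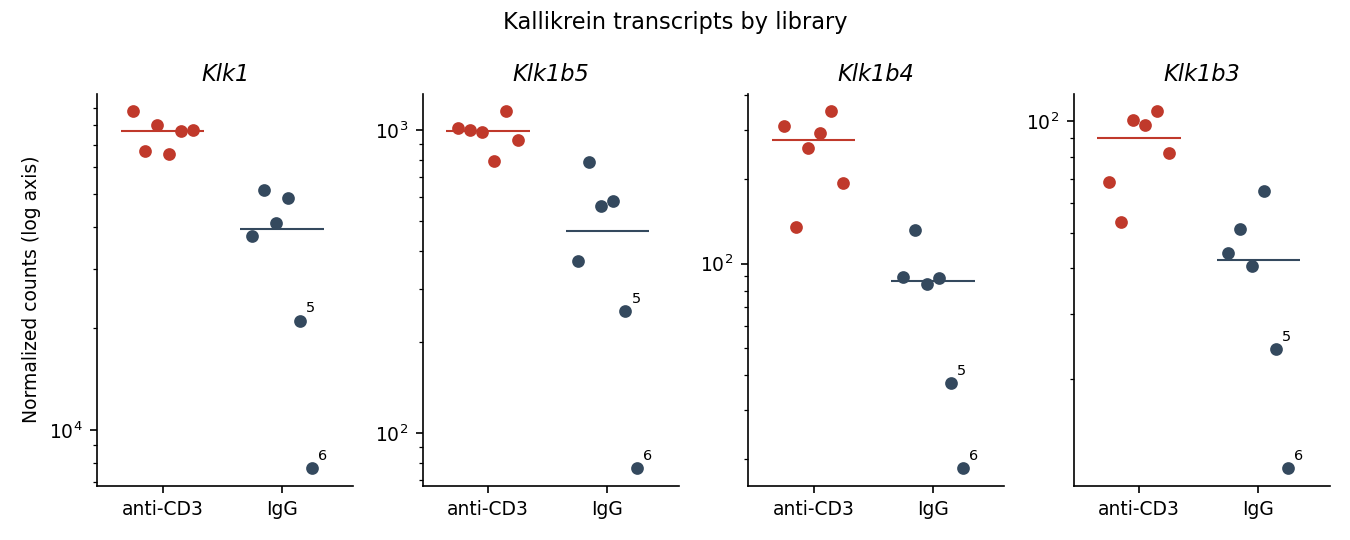
Normalized counts (log axis) of Klk1, Klk1b5, Klk1b4 and Klk1b3 in each library, anti-CD3 left and IgG right, with a line at the median. IgG 5 and IgG 6 are marked; for Klk1 the 6 anti-CD3 libraries lie at 65558 or above and the 6 IgG libraries at 51237 or below.

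The plot of normalized counts by library shows the same 2 IgG libraries lowest for all 4 genes, at 7721 and 21083 for Klk1 and 18.7 and 37.4 for Klk1b4. The groups were separated for Klk1, Klk1b5 and Klk1b4 and overlapped for Klk1b3.

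The 3 remaining genes of the deposited table had few counts. Klk1b24 (ENSMUSG00000063713, chr7:44188236-44192455) had 4.92, 35.4 and 44.1 normalized counts (lowest, median, highest) in the anti-CD3 libraries, against 0, 3.77 and 5.99 in the IgG libraries. In 5 of 6 anti-CD3 libraries it was above the highest IgG library, and it did not pass the low-count filter of the edgeR fit. Fitted without that filter, its log2 fold change was 3.23 ± 0.54 (SE, n = 6 each), from 159 counts in all anti-CD3 libraries and 25 in all IgG libraries. Klk1b8 (ENSMUSG00000063089, chr7:43950664-43954941) had 9.03, 23.3 and 40.1 normalized counts in the anti-CD3 libraries, against 2.38, 10.5 and 22.9 in the IgG libraries, with overlap. Klk1b11 (ENSMUSG00000044485, chr7:43995877-43999875) had 14.4, 25.6 and 74.0 normalized counts in the anti-CD3 libraries, against 4.37, 28.4 and 35.3 in the IgG libraries. Its groups overlapped, and its log2 fold change of 0.40 ± 0.47 was smaller than its SE. Without IgG 5 and IgG 6 the log2 fold change of Klk1b11 was 0.05 ± 0.40.

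The other 7 genes were at or near 0 raw counts. Klk1b26 had 37 counts in all anti-CD3 libraries and 13 in all IgG libraries, and Klk1b27 had 26 and 6. Klk1b21 had 7 and 6, Klk1b9 3 and 1, Klk1b16 3 and 0, and Klk1b1 1 and 0, each given as anti-CD3 and IgG totals. Klk1b22 had 0 counts of 182437328 in all libraries, which allows up to 3 counts, or 0.0164 CPM. Intervals and floors of this kind cover counting error only.

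Of the 14 genes, 6 passed the low-count filter and were tested in the edgeR fit over 13115 genes. At an adjusted p of 0.05, 0 of these 6 were called higher, against 10 genes or 0.0762% of all tested. At an unadjusted p of 0.05, 4 of the 6 were higher, against 9.68% of all tested. DESeq2 called 3 of the 5 that had an adjusted p, Klk1, Klk1b3 and Klk1b4, against 2.65% of its genes. The authors' deposited table called all 4 members with an adjusted p, against 3.24% of its genes, and gave a log2 fold change of 1.13 for Klk1 and 1.78 for Klk1b4. For normalized counts, 3 of 7 members did not overlap between groups, against 1.09% of genes. Because the members were chosen on this contrast, nothing is read from these counts.

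Relative to the acinar enzymes of the same library, Klk1 was still higher in the anti-CD3 libraries. Klk1 counts per 1000 acinar enzyme counts were 5.44, 6.21 and 7.06 (lowest, median, highest) in the anti-CD3 libraries, against 3.42, 4.25 and 5.55 in the IgG libraries. In 5 of 6 anti-CD3 libraries the ratio was above the highest IgG library. IgG 5, at 4.25, and IgG 6, at 3.86, were not apart from the other IgG libraries on this ratio. In both libraries low Klk1 counts came with low acinar enzyme counts.

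On the log2 scale, with each enzyme weighted equally, the Klk1 ratio to the acinar enzymes was -1.31 ± 0.10 in the anti-CD3 libraries and -1.83 ± 0.27 in the IgG libraries (SD, n = 6 each). The difference was 0.52, and 0.48 without IgG 5 and IgG 6. The lowest anti-CD3 library, at -1.43, lay just above the highest IgG library, at -1.44, so the groups did not overlap but nearly met. Klk1 was the 1 of 6 tested members without overlap on this ratio, against 0.0381% of all genes. Since Klk1 was chosen on this contrast, nothing is read from this count, and with summed enzyme counts the groups overlapped. Klk1b4 differed by 1.07, from ratios of -9.57 ± 0.45 in the anti-CD3 libraries and -10.64 ± 0.42 in the IgG libraries, and 5 of 6 anti-CD3 libraries lay above the highest IgG library. Klk1b5 differed by 0.62, Klk1b3 by 0.36 and Klk1b8 by 0.22, all with overlap. Klk1b11 had the opposite sign, at -12.62 ± 0.86 in the anti-CD3 libraries and -12.13 ± 0.30 in the IgG libraries, also with overlap.

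**Figure D2:**
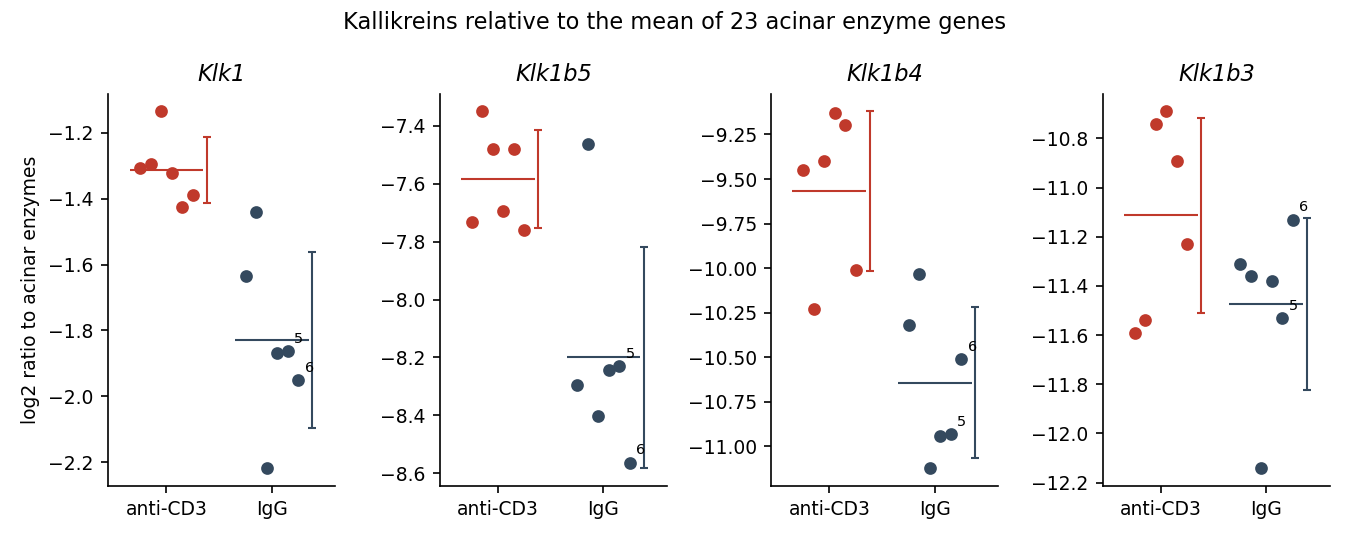
Log2 ratio of Klk1, Klk1b5, Klk1b4 and Klk1b3 to the mean of the acinar enzymes in each library, anti-CD3 left and IgG right, with the mean as a line and the SD as a bar. The Klk1 means are -1.31 in the anti-CD3 libraries and -1.83 in the IgG libraries.

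The plot of ratios to the acinar enzymes shows IgG 5 and IgG 6 among the other IgG libraries for Klk1, at -1.86 and -1.95. On the level plot the same libraries lay at the bottom.

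On the scale of the edgeR fit, the acinar enzymes themselves were mostly higher in the anti-CD3 libraries, by less than Klk1. Of the 23 enzymes, 22 had a higher and 1 a lower fitted level, with a median log2 fold change of 0.65, against -0.05 over all genes tested. In edgeR's quasi-likelihood test with Benjamini-Hochberg adjustment 0 were called, against 0.0762% of all genes called higher. At an unadjusted p of 0.05 edgeR gave 7, against 9.68% of all genes higher, and DESeq2 called 0, against 2.65%. The largest log2 fold changes were those of Prss2, a trypsinogen, at 0.95 ± 0.36, Amy2b, an amylase, at 0.93 ± 0.36, and Try10, a trypsinogen, at 0.92 ± 0.33. The smallest were those of Cel, the bile salt-activated lipase, at 0.39 ± 0.36, Ctrb1, a chymotrypsinogen, at 0.37 ± 0.40, and Prss3, a trypsinogen, at -0.32 ± 0.58. Without IgG 5 and IgG 6 the median was 0.28, with 21 higher and 2 lower. The direction depended on the scale. As a share of all counts the enzymes averaged 67.7% in the anti-CD3 and 58.5% in the IgG libraries, or 66.5% without IgG 5 and IgG 6. Among the enzymes compared by mean TPM, Prss2, Amy2b, Cela1 and Cela2a were higher and Cpa1 and Pnlip lower in the anti-CD3 libraries. Acinar enzymes above Klk1's fold numbered 0 in the 22 fits compared, the edgeR fit and its 21 alternatives. Klk1 was chosen on this contrast and the fits reuse the same 12 libraries, so nothing is read from this count.

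**Figure D3:**
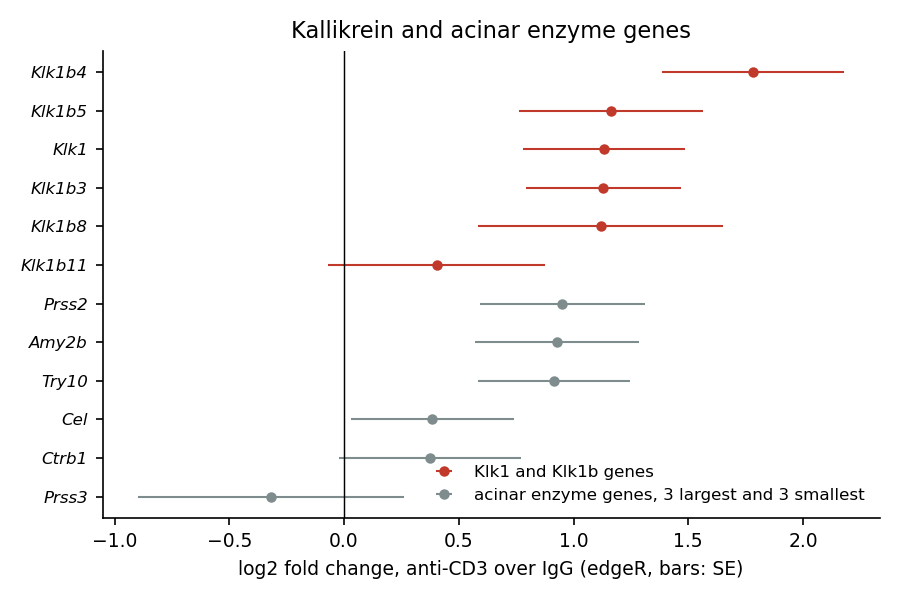
Log2 fold change, anti-CD3 relative to IgG, with its SE (edgeR fit), for 6 kallikreins and for the 3 acinar enzymes with the largest and the 3 with the smallest fold change. Klk1b4 lies at 1.78 and Klk1 at 1.13, and the enzymes run between 0.95 for Prss2 and -0.32 for Prss3.

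For the enzymes nearest to Klk1 in fold change the difference was about the size of the spread, and the groups overlapped. The log2 ratio of Klk1 to Prss2 was higher by 0.22 in the anti-CD3 libraries, where its SD was 0.14, against an SD of 0.26 in the IgG libraries. For Try10 it was higher by 0.24, with SDs of 0.15 in the anti-CD3 libraries and 0.19 in the IgG libraries. The ratio of Klk1 to an enzyme did not overlap between groups for 7 of 23 enzymes, Try4, Pnliprp2, Ctrl, Clps, Rnase1, Cpa1 and Ctrb1. The same held for 38.5% of all 13114 other genes.

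Among acinar genes that are not digestive enzymes, Klk1 was set against 11 granule and transcription factor genes. The log2 ratio was 4.36 ± 0.18 in the anti-CD3 libraries and 3.92 ± 0.16 in the IgG libraries (SD, n = 6 each), with overlap. All 11 had higher fitted levels, with a median log2 fold change of 0.70. With edgeR 0 of them were called, against 0.0762% of all genes called higher. At an unadjusted p of 0.05, 4 were higher, against 9.68% of all genes. The largest log2 fold change was that of Ptf1a, a transcription factor, at 1.34 ± 0.55, above that of Klk1. The others lay below that of Klk1. Against the mean of 6 regenerating proteins, secreted acinar proteins of the Reg family, the Klk1 ratio was lower in the anti-CD3 libraries. It was 3.51 ± 0.65 in the anti-CD3 libraries and 4.96 ± 0.79 in the IgG libraries, with overlap. Reg1, the Reg gene with the most counts, did not share this, with a log2 fold change of 1.18 ± 0.37 beside 1.13 for Klk1.

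The kallikreins took 0.388 to 0.480% of all counts in the anti-CD3 libraries and 0.123 to 0.370% in the IgG libraries. The means were 0.429 ± 0.0328% and 0.258 ± 0.0825% (SD, n = 6 each), in that order of groups. Klk1 made up 97.8 to 98.4% of kallikrein counts in the anti-CD3 libraries and 98.0 to 98.6% in the IgG libraries. The difference in the kallikrein share was 0.171 percentage points, and 0.130 without IgG 5 and IgG 6.

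Per length, Klk1 stood among the acinar enzymes. Its level was 5065, 5614 and 6350 TPM (a length-scaled share of the library; lowest, median, highest) in the anti-CD3 libraries, against 2223, 3664 and 4993 TPM in the IgG libraries. It ranked 23 to 24 among all genes by TPM in the anti-CD3 libraries and 26 to 38 in the IgG libraries. By mean TPM over the 12 libraries 18 of the 23 enzymes were above it.

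The TPM levels of the 5 genes at the end of the cluster followed their order on the chromosome. In the anti-CD3 libraries the medians were 2.88 TPM for Klk1b24, 7.75 for Klk1b3, 26.2 for Klk1b4, 55.5 for Klk1b5 and 5614 for Klk1. In the IgG libraries they were 0.619, 5.15, 8.92, 33.3 and 3664 TPM for the same genes in the same order. In neither group did Klk1b5 overlap with Klk1b4 or Klk1b4 with Klk1b3. In the IgG libraries both margins were narrow. The lowest Klk1b5 value was 17.2 TPM and the highest Klk1b4 value 16.4 TPM, and the lowest Klk1b4 value was 6.90 TPM and the highest Klk1b3 value 6.45 TPM. Klk1b11, with medians of 2.57 and 3.36 TPM in anti-CD3 and IgG libraries, and Klk1b8, with 2.27 and 1.22 TPM, overlapped each other.

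**Figure D4:**
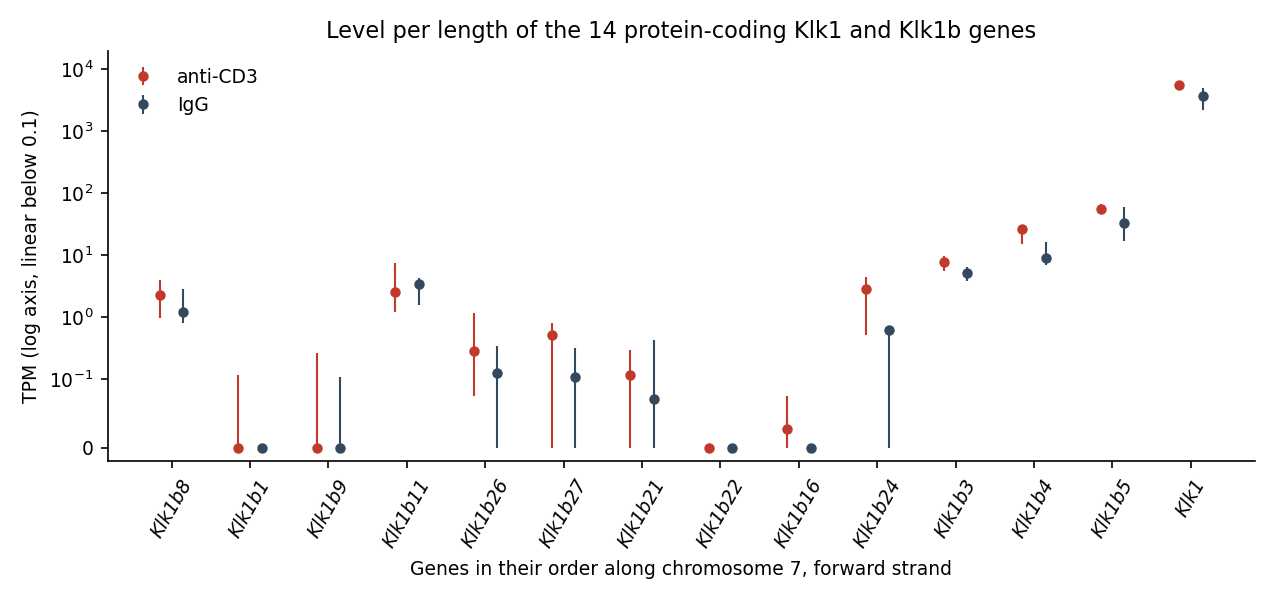
TPM (log axis, linear below 0.1) of the 14 kallikrein genes in their order on chromosome 7, with the median as a point and bars from the lowest to the highest library, anti-CD3 left of IgG. Klk1, at the end of the cluster, has medians of 5614 TPM in the anti-CD3 libraries and 3664 TPM in the IgG libraries.

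The plot of TPM along the cluster shows Klk1 far above its copies in both groups. The 3 copies nearest to it are also the 3 closest to it in coding sequence, which bears on how their reads were counted.

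Coding sequences were 95.2% identical to Klk1 for Klk1b5, 88.6% for Klk1b3, 88.5% for Klk1b4, 84.8% for Klk1b24, 84.7% for Klk1b11 and 82.3% for Klk1b8. The longest coding run shared by Klk1 and Klk1b5 was 145 bases, coding bases 346 to 490 of Klk1b5 (GRCm38). It is shown because a read pair lying wholly within it matches both genes.
Klk1 and Klk1b5: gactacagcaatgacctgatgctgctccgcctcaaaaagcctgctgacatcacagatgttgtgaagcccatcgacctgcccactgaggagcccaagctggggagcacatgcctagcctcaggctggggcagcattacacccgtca
Of all 100-base windows of Klk1b5 transcripts, 3.72% occurred in Klk1, while for Klk1b4 and Klk1b3 the share was 0. At 50 bases the shares were 12.7% for Klk1b5, 7.85% for Klk1b4 and 10.1% for Klk1b3. The read length, the handling of reads with several matches and the differences between the NOD genome and the reference were not stated in the sources at hand. How far Klk1 reads entered the counts of its copies was not tested.

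Set against Klk1 in the same library, Klk1b5 and Klk1b3 kept nearly the same proportion in both groups, while Klk1b4 and Klk1b24 had higher and Klk1b11 lower mean proportions in the anti-CD3 libraries. Klk1b5 had 13.0 ± 1.57 counts per 1000 Klk1 counts in the anti-CD3 libraries and 12.1 ± 2.13 in the IgG libraries (SD, n = 6 each). Klk1b3 had 1.13 ± 0.300 and 1.19 ± 0.196 on the same scale and in the same order of groups. Klk1b4 had 3.38 ± 1.02 counts per 1000 Klk1 counts in the anti-CD3 libraries and 2.17 ± 0.333 in the IgG libraries, with 4 of 6 anti-CD3 libraries above the highest IgG library. Klk1b24 had 0.422 ± 0.201 in the anti-CD3 libraries and 0.113 ± 0.0871 in the IgG libraries, with 5 of 6 above. Klk1b11 had 0.425 ± 0.267 in the anti-CD3 libraries and 0.721 ± 0.132 in the IgG libraries, with 0 anti-CD3 libraries above the highest IgG library and overlap. Klk1b8 had 0.324 ± 0.171 and 0.318 ± 0.119 in the same order of groups.

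**Figure D5:**
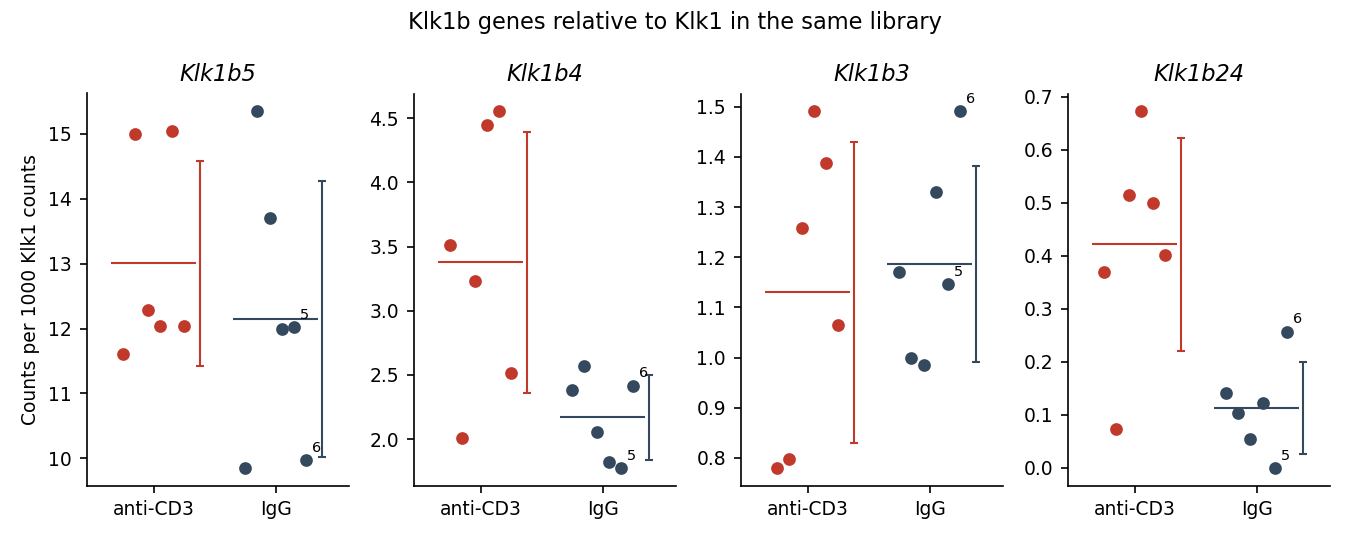
Counts of Klk1b5, Klk1b4, Klk1b3 and Klk1b24 per 1000 Klk1 counts in each library, anti-CD3 left and IgG right, with mean and SD. Klk1b4 averages 3.38 in the anti-CD3 libraries and 2.17 in the IgG libraries, and Klk1b5 13.0 and 12.1.

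The plot of counts per 1000 Klk1 counts shows a wide spread of Klk1b4 in the anti-CD3 libraries, between 2.01 and 4.55. In the IgG libraries it lay between 1.78 and 2.57.

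The genes whose levels followed Klk1 most closely were found by the SD, over the 12 libraries, of the log2 ratio to Klk1, among 1693 genes with a mean log2 CPM of at least 5. They were Reg1, a regenerating protein (SD 0.18), Klk1b5 (0.21), Try10 (0.21), Prss2 (0.23) and Cuzd1, a zymogen granule membrane protein (0.23), against a median of 0.97 over all these genes. Without IgG 5 and IgG 6, 2 of these 5 genes were again among the closest 5. For Klk1b4 they were Cxadr, a cell adhesion receptor of epithelia (0.37), Reg3d, a regenerating protein (0.39), Tmem97 (0.42), Klk1 (0.45) and H1f0, a linker histone (0.47), against a median of 1.20. Klk1b4 itself averaged 4.06 log2 CPM in the anti-CD3 and 2.14 in the IgG libraries, and its list was not remade without IgG 5 and IgG 6. The SDs span both groups, so genes with a similar fold change rank close. Klk1 and Klk1b4 were chosen on that contrast, so nothing is read from either list.

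Of the kinin system, in which kallikrein acts, 11 of 17 listed genes were tested. Against 0.0762% of all genes called higher and 0 called lower, edgeR's quasi-likelihood test with Benjamini-Hochberg adjustment called 0 of these 11. Their fitted levels were higher for 3 and lower for 8, with a median log2 fold change of -0.56, against -0.05 over all genes tested. At an unadjusted p of 0.05, 1 was higher, against 9.68% of all genes, and 3 were lower, against 8.68%. DESeq2 called 1, Ece1, which was lower, against 1.13% of its genes. Kng2, a kininogen and so the substrate, had a log2 fold change of 1.27 ± 0.48 (edgeR adjusted p = 0.189), at 6 to 25 counts per anti-CD3 library and 4 to 14 per IgG library. Leaving out IgG 5 and IgG 6 gave 0.83 ± 0.48, and DESeq2 gave Kng2 no adjusted p. Kng1, the other kininogen listed, had 3 counts in all anti-CD3 libraries and 3 in all IgG libraries and was not tested.

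Receptors and kininases had mostly lower fitted levels, none past the edgeR test. The log2 fold changes were -0.62 ± 0.31 for Bdkrb2, the B2 receptor (edgeR adjusted p = 0.304), and -0.56 ± 0.55 for Bdkrb1, the B1 receptor (edgeR adjusted p = 0.596). Among the kininases they were -0.61 ± 0.17 for Ece1, endothelin-converting enzyme (edgeR adjusted p = 0.10, DESeq2 adjusted p = 0.0227, 0.0227 to 0.399 over all alternatives), and -0.93 ± 0.38 for Ace (edgeR adjusted p = 0.220). Mme, Cpm, Cpd and Cpn1, the other kininases tested, had values of 0.09, -0.24, -0.22 and 0.45. Serping1, the C1 inhibitor, was at -0.92 ± 0.40 and Nos3, the endothelial nitric oxide synthase, at -0.64 ± 0.40. Without IgG 5 and IgG 6, Ace was at -0.40, Serping1 at -0.47, Nos3 at -0.20, Cpn1 at 0.19, Mme at 0.03 and Bdkrb1 at 0.23. In the same setting Ece1 was at -0.49 ± 0.16, Bdkrb2 at -0.56 ± 0.38, Cpm at -0.35 and Cpd at -0.23.

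Markers of endothelium and stroma also had lower fitted levels in the anti-CD3 libraries. With edgeR 0 of them were called, and 0 of all 13115 genes tested were called lower. Summed counts of 5 endothelial markers were 0.00523 to 0.0111% in the anti-CD3 libraries and 0.00613 to 0.0529% in the IgG libraries, and those of 7 stromal markers 0.00192 to 0.00811% and 0.00534 to 0.0615%. The highest IgG shares without IgG 5 and IgG 6 were 0.0161% for the endothelial and 0.0135% for the stromal markers. All 5 and all 7 were lower in the fit, 1 and 4 of them at an unadjusted p of 0.05, against 8.68% of all genes lower. DESeq2 called 0 and 2, against 1.13% of its genes lower. The part of these markers in the kinin results was not tested. No defining marker of either list was at 0. Ptprc, the pan-leukocyte gene, had a median of 243 normalized counts in the anti-CD3 libraries and 418.5 in the IgG libraries, Col1a1 108.5 and 311, and Krt19, a duct gene, 2593 and 1953, in that order of groups.

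Of 8 growth factor partners of the Klk1b proteins, 6 were tested and edgeR and DESeq2 called 0, with 0 past an unadjusted p of 0.05. Over all genes, edgeR gave 9.68% higher and 8.68% lower at that unadjusted p, and called 0.0762% higher after adjustment. DESeq2 called 2.65% of its genes higher and 1.13% lower. Fitted levels of the 6 partners were higher for 3 and lower for 3. Egf, epidermal growth factor, had a log2 fold change of 0.40 ± 0.30 and Egfr, its receptor, 0.24 ± 0.27. The protease-activated receptors F2r and F2rl1 had -0.63 ± 0.41 and 0.24 ± 0.23. Leaving out IgG 5 and IgG 6 gave 0.12 for Egf, 0.05 for Egfr, -0.19 for F2r and 0.10 for F2rl1. Of the 12 other kallikrein-related genes, Klk4 to Klk15, 0 passed the low-count filter. Klk5, Klk12 and Klk15 were at 0 in all libraries, and the highest single count was 46, of Klk8 in IgG 6.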

How the data were processed

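Poly(A) RNA of islets was sequenced as read pairs, per the labels' protocols. Per the submitters' processing notes, which give no order or options, Trimmomatic 0.36, STAR 2.5.2b, featureCounts of Subread 1.5.2 and DESeq2 were used with GRCm38 (mm10). Annotation release, strand setting and multi-mapping were not stated in the sources at hand. The authors deposited whole-number counts for 49315 genes. The authors' deposited comparison table gives, for 13703 genes, a normalized signal that is each library's counts over a single size factor, a log2 fold change and p-values, with the adjusted p NA for 2935 genes. A count column of anti-CD3 5 carries an unexplained prefix, and 0 columns were unmapped.

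Counts were fitted with edgeR 4.0.16 in R 4.3.3 (filterByExpr, minimum count 10, minimum total 15, 13115 genes kept; TMM; quasi-likelihood F test, robust, two-sided, Benjamini-Hochberg, adjusted p 0.05), and the procedure was tested on simulated data. The SE of an edgeR log2 fold change was derived from the F statistic. It is the absolute log2 fold change over the square root of F. TMM factors were 0.733 to 2.36. Log2 CPM used a prior count of 2. TPM used exon lengths of GENCODE M21 (GRCm38). Log2 ratios took each gene's log2 CPM minus the mean over 23 acinar enzymes.

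Members and lists were chosen with earlier results of these data known, so members carry no p-value. Named were all members, the 5 genes closest to Klk1 and to Klk1b4, the 3 enzymes with the largest and the 3 with the smallest fold change, tested kinin and growth factor genes (some are not reported here), and 1 marker each of other cells. Alternatives were DESeq2 1.42.0, limma 3.58.1 (voom), other scaling and filters, a replicate block, an acinar covariate and left-out libraries.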

Additional observations from a re-analysis of the deposited data

Results flagged for a closer look

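In 36 groups of 6 libraries, 1 library was compared with its nearest neighbour relative to the group's range, using Dixon's limit. By chance about 1 in 20 such groups is expected to pass, and 3 did. Klk1b11 had 74.0 normalized counts in anti-CD3 3, while the next highest anti-CD3 library had 34.1. Per 1000 Klk1 counts, the same gene had 0.924 in that library and 0.444 in the next, so both entries rest on 1 library and 1 gene. Klk1b24 had 4.92 normalized counts in anti-CD3 2, while the next lowest anti-CD3 library had 31.0, and that value lay within the IgG range of 0 to 5.99. The causes were not tested.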

How the results depend on the processing

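Klk1, Klk1b3, Klk1b4 and Klk1b5 kept a positive log2 fold change under all 21 alternatives each. Leaving out 1 library at a time gave 0.93 to 1.28 for Klk1, 0.93 to 1.33 for Klk1b3, 1.56 to 2.03 for Klk1b4, 0.94 to 1.42 for Klk1b5 and 0.87 to 1.46 for Klk1b8. Klk1b11 reversed to -0.20 with the acinar covariate and to -0.035 without anti-CD3 replicate 3. Its values with 1 library left out ran from -0.035 to 0.55. The kallikrein share differed by 0.618 percentage points when taken over counts outside the acinar enzymes, and by 0.144 to 0.193 with 1 library left out. The log2 ratio to acinar enzymes differed by 0.44 to 0.60 for Klk1 and 0.98 to 1.20 for Klk1b4 with 1 library left out.

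The number of genes called over the whole table was 10. It was 7 with RLE factors, 167 without a filter, 455 with DESeq2, 135 with limma-voom, 0 with the acinar covariate, 1 without IgG 5 and IgG 6, and 0 to 203 with 1 library left out. The causes were not tested. With the replicate number as a block it was 0 and the log2 fold change of Klk1 was 1.33. Correlations of same-numbered libraries ran from -0.287 to 0.552, and 2 of 6 correlated best with their own number. These values cannot decide whether the numbers pair the samples, because acinar content also varied between libraries of a group. Of the 5 genes closest to Klk1, 2 remained without IgG 5 and IgG 6. Klk1b8, Klk1b11 and Klk1b24 had 25 to 168 counts in all 6 libraries of a group, and how depth limits them was not tested.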
